A study of Bos indicus with 12 samples.

Results

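DGAT1 encodes diacylglycerol O-acyltransferase 1, and the region described here is the 400-kb interval around that gene on chromosome 14, from position 410000 to 810000 of the ARS-UCD1.2 cattle genome, with the gene near its centre at 610000. Every cytosine of the deposited table that starts in this interval was taken, which gave 1659 of 635469 cytosines. They lay between positions 414322 and 799642, with 829 on the plus strand and 830 on the minus strand, and 81 of them were within 10 kb of the centre. The values are methylation levels from reduced representation bisulfite sequencing (RRBS), in which DNA is cut by the enzyme MspI and treated with bisulfite, so that an unmethylated cytosine is read as thymine. The animals were 12 Nelore (*Bos indicus*) steers, each with 1 library of DNA from *longissimus thoracis*, the large muscle along the back. The study named the 6 animals with high shear force Tough and the 6 with low shear force Tender, shear force being the force needed to cut the meat. The steers had been chosen as the extremes of a larger population by their estimated breeding value, received the same ration and handling, and within a group had different sires, and no treatment or engineered allele sets the groups apart. The sample labels give shear force at 7 days of aging, while the study's text names a later day.

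The enzyme made by DGAT1 joins a fatty acid to diacylglycerol, which is the last step in the synthesis of triacylglycerol, the form in which fat is stored. The gene is best known in cattle for its association with milk fat, and in muscle its product serves the lipid droplets of fibres and of the adipocytes that make up marbling. DNA methylation at CpG sites is usually low over dense CpG clusters at active promoters and high over sparse CpGs within and between genes. In the RefSeq gene table of another *Bos indicus* assembly, DGAT1 lies between SCRT1, a zinc finger repressor, and HSF1, the heat shock transcription factor. On the HSF1 side follow BOP1, which acts in ribosome assembly, SCX, the tendon transcription factor scleraxis, and MROH1, and on the SCRT1 side TMEM249, FBXL6, the riboflavin transporter SLC52A2, ADCK5 and CPSF1, a subunit of the polyadenylation complex. That table gives the order of the genes but not their ARS-UCD1.2 coordinates, so positions below are given as distances from the centre, and which cytosines lie inside DGAT1 was not analysed here. For the same reason the labelled tissue could not be checked against the methylation of muscle marker genes.

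Sequencing depth over the interval was even enough for single cytosines to be read in each animal. Each animal had between 36022 and 59958 cytosine calls in the interval after the authors' scaling was undone, and the median cytosine had 24 reads. At a level of 50%, counting 24 reads alone gives a standard error of 10.2 percentage points, so the level of 1 cytosine in 1 animal is coarse, and means over cytosines or animals are firmer. PCR copies of 1 molecule cannot be recognised in these reads, so this error covers counting only. In muscle tissue, a change in the mixture of cell types and a change within cells cannot be told apart.

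The interval was mostly unmethylated. Of its cytosines, 974 (58.7%) had a mean level under 5% over the 12 animals, compared with 52.4% over the whole table, and 256 (15.4%) were at 0 in all 12 animals. Another 245 (14.8%) lay between 5% and 20%, a class that held 9.26% of the whole table. At the other end, 56 cytosines (3.38%) lay between 80% and 90% and 115 (6.93%) at 90% or more, compared with 6.97% and 13.6% of the whole table. The class between 20% and 80% held 269 cytosines (16.2%), close to the 17.8% of the whole table. The interval thus had more unmethylated and slightly methylated cytosines and fewer fully methylated ones than the table as a whole, and these shares are given without a test. Coverage was alike in the 3 levels compared, with a median of 27 scaled reads for cytosines under 5%, 26 for those between 20% and 80% and 27 for those of 80% or more.

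Methylation changed abruptly along the interval. In bins of 20 kb, the mean level ran from 1.12% in the bin 80 to 100 kb beyond the centre to 93.4% in a bin 80 to 100 kb before it that held 1 cytosine. The bin just before the centre held 274 cytosines, more than any other bin, with a mean of 8.26%, and the bin just after it held 26 cytosines with a mean of 74.0%. Of these, 227 before the centre and 0 after it had a mean under 5%. The sampling was uneven as well, since the longest stretch without a covered cytosine ran for 24.4 kb from position 510798 to 535165. The 15.5 kb from 616763 to 632297, starting 6.76 kb beyond the centre, also held none.

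**Figure D1:**
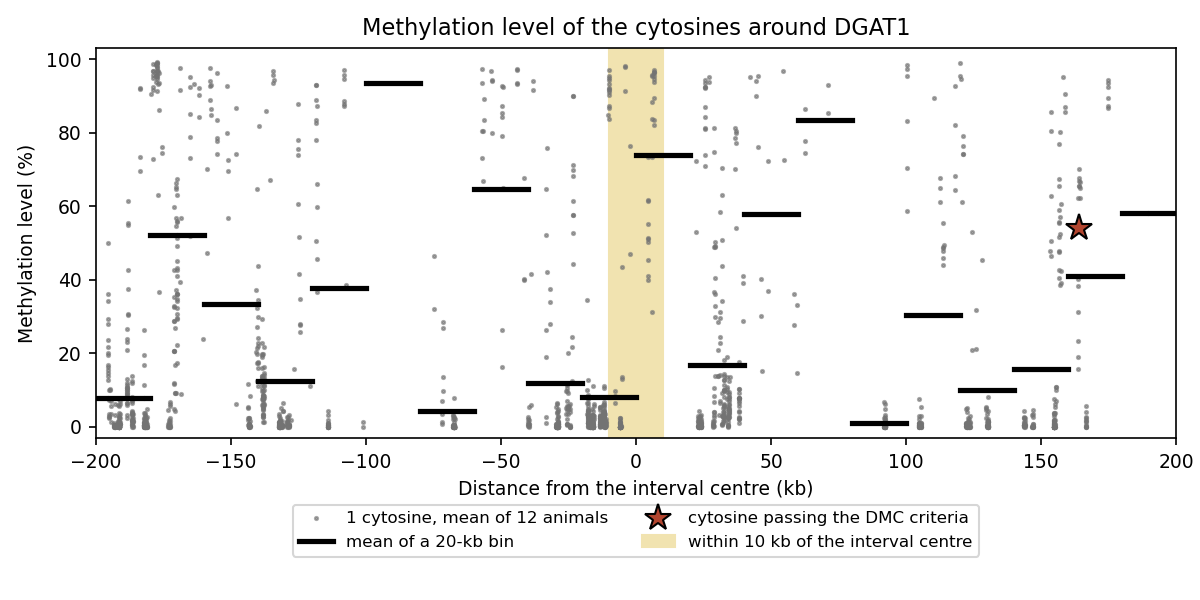
Mean methylation level (vertical axis, %) of each of the 1659 cytosines over the 12 animals against the distance from the interval centre (horizontal axis, kb). Grey points are cytosines, black bars are means of 20-kb bins, which hold between 1 and 274 cytosines, the shaded band spans 10 kb on each side of the centre and the star is the cytosine that passed both criteria for a differentially methylated cytosine. Dense columns of points near 0 alternate with sparse columns of high points.

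The longest run of neighbouring cytosines with means under 5% began 17.8 kb and ended 15.9 kb before the centre. It held 96 cytosines from position 592193 to 594056, with a mean of 1.05% and a range over animals from 0.441% to 1.58%. The longest run above 80% held 25 cytosines from 431057 to 432977, with a mean of 96.0% and a range over animals from 93.5% to 98.4%. All 12 animals were therefore near 0 in the former run and near full methylation in the latter.

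Cytosines at most 100 bp apart were joined into blocks of at least 3, which gave 155 blocks holding 1580 of the 1659 cytosines. Of these blocks, 70 had a mean under 5%, 23 lay between 5% and 20%, 42 between 20% and 80%, and 20 at 80% or more. Among the 22 blocks of 20 or more cytosines, 18 had a mean under 5% and 0 reached 80%, whereas among the 100 blocks of 3 to 9 cytosines 35 were under 5% and 16 were at 80% or more. The largest block, from 764632 to 765058 with 47 cytosines, had a mean of 1.05% and never exceeded 2.11% in an animal. The spread between animals differed with the level. The median SD was 0.867 percentage points in blocks under 5%, 5.07 in blocks of 5% to 20%, 7.86 in blocks of 20% to 80% and 4.13 in blocks of 80% or more. How much of these SDs is counting error was not tested. A single block, 638921 to 638960 with 4 cytosines, stayed between 35% and 65% in all 12 animals, at a mean of 52.9%, although its single cytosines had means from 6.73% to 81.2%.

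**Figure D2:**
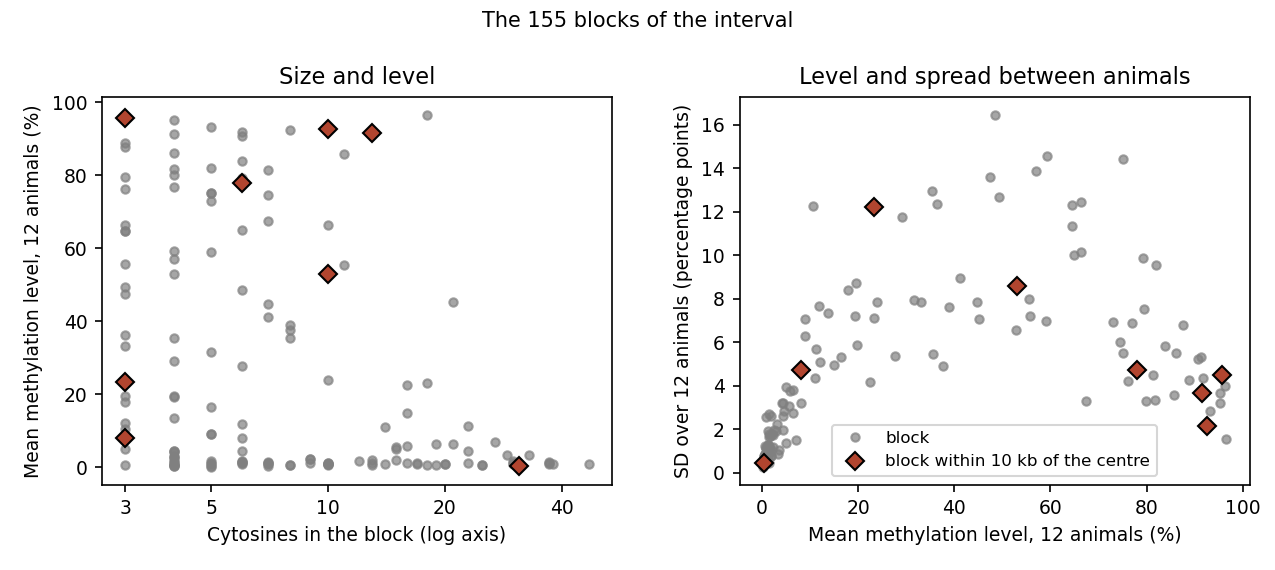
The 155 blocks of the interval, with the number of cytosines (log axis) against the mean level over 12 animals (%) on the left, and the mean level against the SD over the 12 animals (percentage points) on the right. Each grey point is a block and the 8 diamonds are the blocks within 10 kb of the centre. Of the 22 blocks of 20 or more cytosines 18 lie under 5% and the highest is at 45.2%, and blocks under 5% have the lowest median SD.

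Within 10 kb of the centre, the region closest to DGAT1, 8 blocks held 79 of the 81 cytosines and differed from each other far more than the groups of animals did. Block means ran from 0.432% to 95.7%. The unmethylated end was a cluster of 31 cytosines over 284 bp, from 603991 to 604274, in which the Tough animals ranged from 0 to 1.27% with a median of 0.3796% and the Tender animals from 0 to 0.991% with a median of 0.224%. This was the lowest mean among the 22 blocks of 20 or more cytosines. The groups overlapped, and the level stayed under 2% in every animal.

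High methylation was found on both sides of this cluster. The 13 cytosines from 600032 to 600131 ranged from 82.3% to 94.7% in the Tough group (median 90.02%) and from 90.2% to 96.3% in the Tender group (median 93.3%). The 3 cytosines from 605981 to 605995, only 1.71 kb beyond the end of the unmethylated cluster, ranged from 95.6% to 100% in the Tough group and from 83.3% to 99.45% in the Tender group. Farther on, the 10 cytosines from 616696 to 616763 had a mean of 92.5% and the 6 from 616058 to 616108 a mean of 78.0%. The means of these 4 blocks were high in all 12 animals, with none under 71.6%. Single cytosines could be lower, as at 616108 on the plus strand, named after its values were seen, which had a mean of 31.3% and ranged from 7.5% to 46.7%.

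Blocks of low or middle level lay in between. Those starting at 604837 and 614451 varied most between animals, with SDs of 12.2 and 8.59 percentage points. The SDs of the other blocks within 10 kb of the centre were 4.73 points or less. The 3 cytosines from 604837 to 604886 ranged from 1.96% to 39.6% in the Tough group (median 23.1%) and from 11.7% to 40.7% in the Tender group (median 22.3%). Most of this spread came from the cytosine at 604879 on the minus strand, which had a mean of 43.4% between neighbours at 12.96% and 13.7%. A small block at 602283 to 602311 had a mean of 8.16%. The block from 614451 to 614510, 4.48 kb beyond the centre, held 10 cytosines and ranged from 45.8% to 69.4% in the Tough group (median 51.1%) and from 41.6% to 65.9% in the Tender group (median 52.8%). All 10 of its cytosines had means between 20% and 80%, from 39.96% to 73.4%, while single animals ran from 6.67% to 92.9% at single cytosines.

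The 2 cytosines nearest the centre belonged to no block. At 607746 on the plus strand, 2.25 kb before the centre, the Tough animals ranged from 60.0% to 83.3% (median 72.4%) and the Tender animals from 68.2% to 89.5% (median 84.5%). At 607801 on the minus strand, the Tough animals ranged from 18.8% to 68.4% (median 35.7%) and the Tender animals from 45.0% to 79.4% (median 50.0%). The Tender group was higher at both and the groups overlapped at both. The adjusted p-values of the logistic model were 0.660 and 0.524, so neither difference passed.

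**Figure D3:**
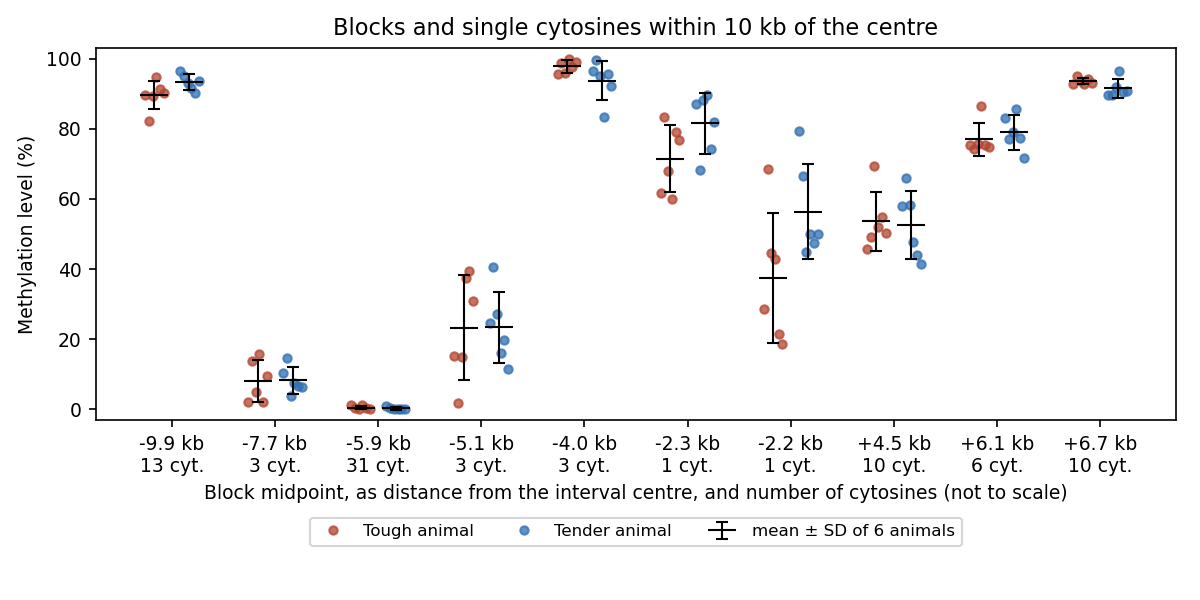
Methylation level (vertical axis, %) of the 8 blocks and 2 single cytosines within 10 kb of the centre, ordered by position, with the distance from the centre and the number of cytosines under each. Each point is 1 animal, red for Tough and blue for Tender, and bars give the mean ± SD of 6 animals. The levels run from 0.432% to 95.7% between blocks, and the 2 groups overlap at every position.

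The average methylation of the interval did not separate Tough from Tender. The mean over its cytosines ranged from 18.1% to 20.4% in the Tough group (median 19.3%) and from 18.8% to 20.2% in the Tender group (median 19.8%). The group means were 19.3% ± 0.886 and 19.7% ± 0.474 (SD, n = 6 each), a difference of 0.403 percentage points that was smaller than the SD of the Tough group, and the ranges overlapped. The whole table showed a difference of the same size, 29.5% in Tough and 29.9% in Tender, and the interval lay 10.2 points below the whole table in both groups. The rest of chromosome 14 had means of 30.8% and 31.3%. Within 10 kb of the centre the means were 44.6% ± 1.67 and 45.1% ± 2.17. Cytosines between 20% and 80% averaged 48.2% ± 2.78 in Tough and 49.8% ± 1.73 in Tender, again with overlap.

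In a genome-wide tiling by windows of 400 kb, the interval had a pooled difference of 1.10 points, higher in Tender, with an adjusted p of 0.585 by the logistic model with Benjamini-Hochberg adjustment over 6590 windows, of which 0.637% passed. The interval was among the most densely sampled of these windows, as only 7 windows held more cytosines. Its mean was below the median of 24.2% over the 1724 windows with at least 100 cytosines, of which 595 had a lower mean.

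**Figure D4:**
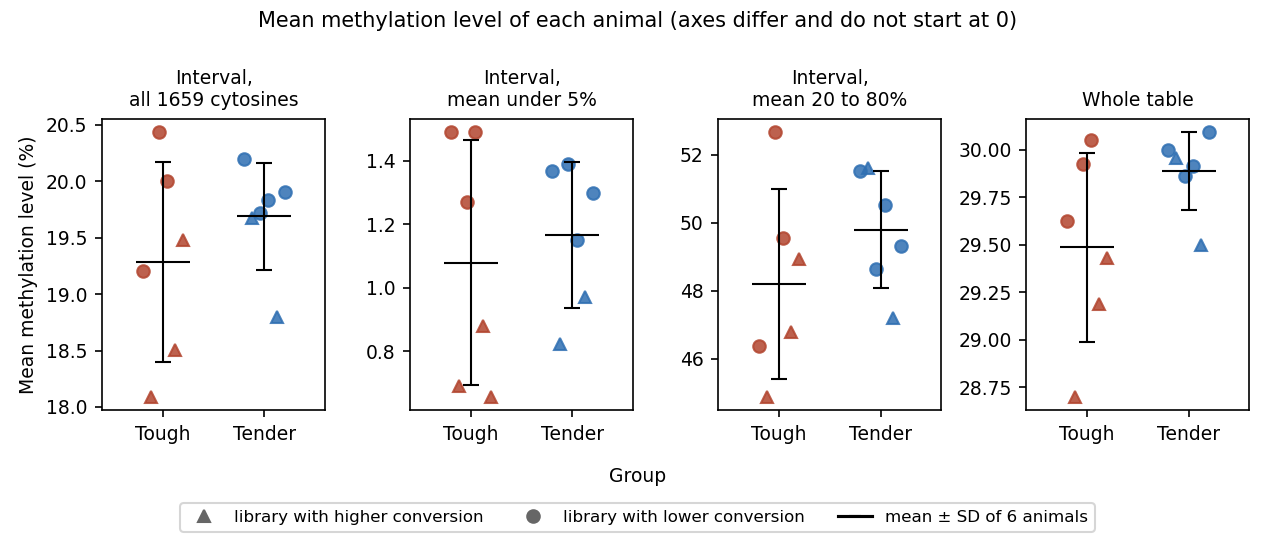
Mean methylation level (vertical axes, %, not starting at 0) of each animal in the Tough and Tender groups, for the whole interval, its cytosines with a mean under 5%, its cytosines of 20% to 80% and the whole table. Triangles are the 5 libraries with higher bisulfite conversion and circles the 7 with lower conversion, and bars give the mean ± SD of 6 animals. The groups overlap in every panel, and in the panel of cytosines under 5% all triangles lie below all circles.

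The libraries differed in bisulfite conversion, and both the lowest levels and the interval mean moved with it. By the study's mapping summary, 5 libraries had higher conversion, 3 Tough and 2 Tender, and 7 had lower conversion, 3 Tough and 4 Tender. The sample labels do not give conversion, and the summary was matched to the samples by their numbers. The mean of the 974 cytosines under 5% ranged from 0.655% to 0.970% in the libraries with higher conversion and from 1.15% to 1.49% in those with lower conversion, without overlap. The mean of the whole interval ranged from 18.1% to 19.7% (median 18.8%) in the libraries with higher conversion. In those with lower conversion it ranged from 19.2% to 20.4% (median 19.9%), with overlap. Within the libraries with higher conversion the interval mean was 0.545 points higher in Tender, and within those with lower conversion 0.0349 points higher. Of 36 pairs of animals from different groups, the median Pearson correlation over the interval's cytosines was 0.939, and of 30 pairs within a group 0.941, both across cytosines that share fragments, so animals of 1 group were about as alike as animals of different groups.

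At single cytosines, 1 of the 1659 met the criteria for a differentially methylated cytosine (DMC), namely an adjusted p under 0.05 and a pooled difference above 25 percentage points. In all, 121 of 635469 cytosines (0.019%) met them. Adjusted p alone was under 0.05 at 2 cytosines of the interval (0.121%), compared with 0.135% of the whole table, and an unadjusted p was under 0.05 at 139 (8.38%), compared with 8.29%. The interval was thus near the background in each count. Of cytosines with unequal group means 726 were higher in Tender and 677 in Tough, so 51.7% were higher in Tender, compared with 53.5% in the whole table. A pooled difference above 10 points was found at 84 (5.06%), compared with 5.95% of the whole table.

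The DMC was the cytosine at 774091 on the minus strand, 164 kb beyond the centre and far from DGAT1. The annotation used by the study places it between genes, in a CpG island, with SMPD5, a sphingomyelinase gene, and OPLAH, which encodes 5-oxoprolinase of the glutathione cycle, as the closest genes. In the gene table of the other assembly, 14 entries stand between DGAT1 and OPLAH. Its level ranged from 21.7% to 58.3% in the Tough animals (median 38.4%) and from 58.3% to 81.8% in the Tender animals (median 70.4%). The highest Tough animal and the lowest Tender animal met at 58.3%, and all others were apart. The group means were 37.8% ± 13.1 and 70.3% ± 9.82 (SD, n = 6 each), with 12 to 28 scaled reads an animal. The pooled difference was 35.2 points with an adjusted p of 0.00123 by the logistic model. An exact two-sided permutation test of the animals gave p = 0.00433. That test used the values by which this cytosine was picked and is unadjusted, so it adds no separate support. The F-test in place of the chi-square test gave an adjusted p of 0.806 and limma 0.898, so the call rests on the choice of test.

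The cytosines beside the DMC did not separate the groups as it did, although the 2 on its own strand were also higher in Tender. Within 50 bp lay 5 other cytosines with means between 65.5% and 70.1% over all animals, 3 of them higher in Tender and 2 higher in Tough by the pooled difference. Their pooled differences ran from −6.22 to 21.0 points with a mean of 6.65, and the lowest of their adjusted p-values was 0.589. The 2 on the minus strand were higher in Tender by 21.0 and 13.8 points. By group means the one at 774046 on the plus strand was also higher in Tender, by 1.58 points. The block from 774046 to 774091, which includes the DMC, averaged 59.0% in Tough and 70.9% in Tender. Its adjusted p by the logistic model was 0.616. The nearest one on the same strand, 9 bp away, ranged from 30.4% to 85.2% in Tough and from 63.6% to 100% in Tender. In the Tough group the DMC, at 37.8%, was thus lower than these neighbours, while in the Tender group its 70.3% was within their range. Within the libraries with higher conversion its group means were 29.7% and 77.0%, and within those with lower conversion 45.8% and 67.0%.

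**Figure D5:**
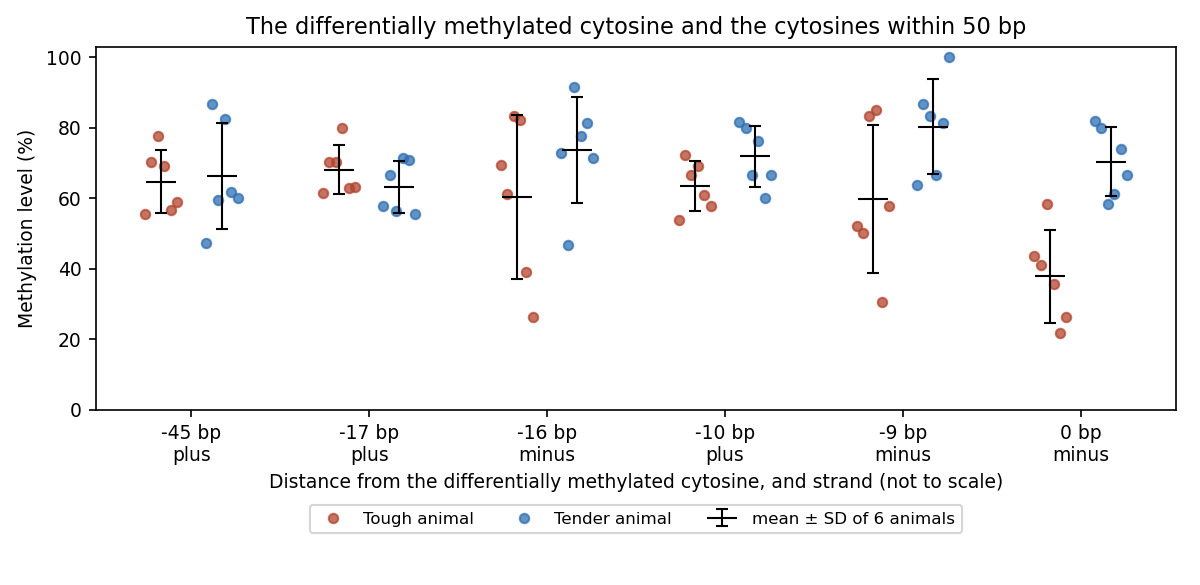
Methylation level (vertical axis, %) of the differentially methylated cytosine, at 0 bp, and of the 5 covered cytosines within 50 bp, with distance and strand under each. Each point is 1 animal, red for Tough and blue for Tender, and bars give the mean ± SD of 6 animals. At 0 bp the groups meet only at 58.3%, and at the other positions they overlap widely.

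The other cytosine with an adjusted p under 0.05 was at 469951 on the plus strand, 140 kb before the centre. It ranged from 0 to 5% in Tough (median 1.72%) and from 0 to 33.3% in Tender (median 22.1%). Only 1 Tender animal was at 0, and the other 5 were above every Tough animal. The pooled difference of 18.7 points had an adjusted p of 0.00703 by the logistic model, but it was under the 25 points that a DMC requires. The exact permutation p of 0.0152 is unadjusted and belongs to a cytosine picked for its small p.

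Among the remaining cytosines with the smallest p higher in Tender, 2 were at 0 in all 6 Tough animals. The cytosine at 644427 on the plus strand reached 8.82% in Tender (median 6.04%) and the one at 542191 on the minus strand 18.5% (median 3.81%), each with 1 or more Tender animals also at 0, and their adjusted p-values were 0.0576 and 0.120. With conversion as a covariate neither passed. On the other strand of the CpG at 644427 the pooled difference was only 0.673 points. With its strands merged it was 3.62 points, with an adjusted p of 0.648 by the logistic model. At 576531 on the plus strand the level ran from 9.38% to 27.8% in Tough and from 7.14% to 52.8% in Tender, with an adjusted p of 0.152. This position was also the only 1 of 265 CpGs covered on both strands at which the strands differed by over 20 points, as the plus strand had a mean of 26.4% and the minus strand 1.11%. Over all 265 CpGs the median difference between strands was 0.777 points.

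Of the 5 cytosines with the smallest p higher in Tough, the closest to the centre was at 614484 on the plus strand, 4.48 kb beyond the centre and inside the block of middle level described above. It ranged from 43.8% to 57.7% in the Tough animals (median 51.6%) and from 6.67% to 40.7% in the Tender animals (median 34.5%). Every Tough animal was above every Tender animal. The exact two-sided permutation test gave p = 0.00216, the smallest that 6 animals against 6 allow. It is unadjusted and was run on a cytosine picked for its small p. How many of the interval's cytosines separate the groups in full was not counted here. The logistic model gave an adjusted p of 0.221 over the whole table for the pooled difference of −17.5 points. On the other strand of the same CpG, at 614485, the pooled difference was 3.33 points in the opposite direction, at a mean of 50.2%.

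The other cytosines with the smallest p in that direction were at low or full methylation. At 616721 on the plus strand, 5 of the 6 Tough animals were at 100% and the lowest at 96.2%, while the Tender animals ranged from 89.2% to 100%, with an adjusted p of 0.122. At 427670 on the minus strand the level was 11.99% ± 4.998 in Tough and 3.83% ± 2.76 in Tender (SD, n = 6 each), at 472178 on the plus strand 18.6% ± 6.13 and 9.67% ± 6.57, and at 466861 on the minus strand 3.19% ± 3.86 against 0 in all Tender animals. The groups overlapped at each, and none passed after adjustment.

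Summing reads over wider stretches gave no call in the interval. Of 367 windows of 100 bp, 0 met the criteria for a differentially methylated region by the logistic model with the chi-square test, compared with 0.0217% of windows in the whole table. The F-test gave 0 as well, but how many windows of the whole table pass it was not counted. An unadjusted p was under 0.05 in 38 windows (10.4%), compared with 8.76% of all windows, and the lowest adjusted p was 0.0981. A window held a median of 3 cytosines, and 87 windows held 1. The window with the smallest p, 596701 to 596800 with 29 cytosines, averaged 2.28% ± 0.575 in Tough and 1.09% ± 0.622 in Tender (SD, n = 6 each), so its difference lay wholly within the unmethylated range. The others of the 5 smallest p-values were the windows starting at 720101 (82.6% in Tough, 96.3% in Tender), 414901 (3.51% and 13.1%), 421401 (12.2% and 6.90%) and 799601 (47.0% and 69.3%), of which the first and the last rest on 1 cytosine each.

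Of the 155 blocks, 0 had an adjusted p under 0.05 by the logistic model with the chi-square test, compared with 0.226% of blocks in the whole table. The F-test also gave 0, and again its count over the whole table was not taken. An unadjusted p was under 0.05 in 14 (9.03%), compared with 8.01% of all blocks. The block with the smallest p ran from 643959 to 644011, 34.0 kb beyond the centre, and its 13 cytosines averaged 0.179% to 2.18% in the Tough animals (median 0.594%) and 1.24% to 6.06% in the Tender animals (median 3.34%). The ranges overlapped and the adjusted p was 0.0946. The next block, from 644377 to 644428 with 16 cytosines, ranged from 1.96% to 7.22% in Tough and from 4.26% to 15.7% in Tender, with an adjusted p of 0.256. From 643959 to 644632, 28 of 32 cytosines were higher in Tender and 3 in Tough. This stretch was laid out from the block of smallest p, itself higher in Tender. The direction thus comes in part from that choice, and the count adds no support. Cytosines on shared fragments are also not independent, and 5 had an unadjusted p under 0.05. Within 10 kb of the centre the adjusted p-values of the 8 blocks were 0.287 or more, the lowest being that of the fully methylated block from 616696 to 616763, at 93.5% ± 0.846 in Tough and 91.5% ± 2.64 in Tender (SD, n = 6 each).

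Single animals varied widely at some cytosines. A range over 50 points between the 12 animals was found at 130 cytosines (7.84%), near the 8.02% of the whole table, and the median SD of cytosines between 20% and 80% was 14.4 points. No cytosine of the interval was at 0 in some animals and at 100% in the others, a pattern that 0.360% of the whole table showed. The widest range, 87.3 points, was at 767307 on the plus strand, where 1 Tough animal was at 92.3% and another at 5%. At 728140 on the plus strand Tough 2 was at 5.88% while the other 11 animals were at 53.6% or more, and the other strand of this CpG stayed between 53.6% and 84.2%. Without Tough 2 the range at 728140 fell from 83.0 to 35.3 points.

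The second widest range, 83.8 points, was at 604879 on the minus strand, 5.12 kb before the centre and so among the cytosines closest to DGAT1. The Tough animals ranged from 0 to 72.4% (median 51.8%) and the Tender animals from 13.3% to 83.8% (median 36.2%). The values were scattered over the whole range in both groups, and the exact permutation p was 0.814. At 451053 on the minus strand and 421520 on the plus strand, Tough 6 was highest, at 94.4% and 77.8%, and leaving it out lowered the ranges from 78.7 to 44.2 points and from 77.8 to 45.2 points. At 767307 Tough 6 was again highest, and without it the range was 51.7 points.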

How the data were processed

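RRBS libraries (single-end reads) of 6 Tough and 6 Tender animals were trimmed by the authors with Trim Galore 0.4.1 and aligned to ARS-UCD1.2 with Bismark 0.23.0. Using methylKit 1.8.1, the authors discarded positions under 10 reads or over the 99.9th coverage percentile, normalized coverage, and retained positions present in all 12 libraries. The deposited values are scores, not read counts, because the authors had multiplied the reads of each animal by a factor between 1 and 1.27 and rounded them. The unscaled reads were recovered for every value (0 not recovered), 14521826 to 23470740 an animal over the table.

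Groups came from the shear force labels. The percent methylation is methylated over all scaled reads. The tests were planned for counts and were kept for the scaled values, as methylKit does. Group was fitted by logistic regression at each cytosine, 100-bp window, 400-kb window and block of the whole table, correcting for overdispersion by McCullagh and Nelder (factor at least 1), with a chi-square test and Benjamini-Hochberg adjustment (Python 3.11.15, scipy 1.17.1). The model was tested on simulated reads that varied by counting alone, so its handling of variation between animals was not tested. Single cytosines also had exact two-sided permutation tests. limma 3.58.1 (R 4.3.3) on log2 ratios with a pseudocount of 1 was an alternative. The interval and lists were chosen with earlier results of these data known, and blocks (gap of at most 100 bp, at least 3 cytosines) after seeing the data.

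Cytosines named were the 5 with the smallest p in each direction, the 5 with the widest range and all within 10 kb of the centre, together with the 5 windows of smallest p and the longest runs under 5% and above 80%. Planned tests of promoters, gene bodies, lipid genes and cell type markers were not run, as no ARS-UCD1.2 annotation was used here. No sequence is printed, since no genome of this build was used.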

Additional observations from a re-analysis of the deposited data

Results flagged for a closer look

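In 7 of 47 groups of 6 animals checked, the highest or lowest animal stood apart from the others. The gap was a larger share of the group's range than Dixon's 95% critical value allows. About 1 in 20 groups would pass if they were independent and normally distributed. Several groups here were picked for small p or wide range, share cytosines or pile up at 0 or 100%. The count was therefore not compared with chance. Tender 5 had the lowest interval mean of its group, 18.8% against 19.7% to 20.2%, and at 614484 it was at 6.67% against 29.6% to 40.7%. The library of Tender 5 was among the 5 with higher bisulfite conversion. In the unmethylated block from 603991 to 604274, Tender 1 was at 0.991% and the others at 0 to 0.330%. In the block from 616058 to 616108 Tough 4 was at 86.6% and the others between 74.1% and 75.6%, and in the block from 616696 to 616763 Tender 4 was at 96.6% and the others between 89.7% and 92.0%. At 616721 Tough 1 was at 96.2% and the other Tough animals at 100%. At 427670 Tough 2 was at 2.44% and the others between 11.8% and 16.7%.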

How the results depend on the processing

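The DMC count of 1 became 0 with the F-test, with coverage of at least 20 in every animal, which leaves the cytosine at 774091 out, and with limma. How many cytosines of the whole table pass with the F-test or limma was not counted. It became 2 without the overdispersion correction, where 799642 was added, and 2 with a difference above 10, where 469951 was added. It stayed at 1 with unscaled reads, merged strands and conversion as a covariate. Leaving out single animals gave 1 to 2, with 2 without Tender 4. The window count of 0 became 1 without the overdispersion correction and ranged from 0 to 1 with single animals left out, with 1 without Tender 4, in both cases the window holding 799642. The block count of 0 became 1 with conversion as a covariate, the block starting at 472127, and ranged from 0 to 1 with single animals left out. It was 1 for the block at 643959 without Tough 3, Tender 1 or Tender 6, for 586486 without Tough 2, for 421322 without Tough 5 and for 580224 without Tender 2. The interval mean difference ran from 0.163 (without Tough 2) to 0.633 (without Tough 3) and from 0.0349 to 1.07 under other settings, always higher in Tender. The cause of these changes was not tested unless named. No paired analysis was possible because replicate numbers were given in accession order and pair no animals. Alternatives for promoters and gene bodies were not run. At 24 reads a cytosine, differences well below the 10.2-point counting error were not detectable in single animals.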

Other observations

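In the 42 blocks of the interval with means between 20% and 80%, 28 were higher in Tender, compared with 9825 of 16973 such blocks in the whole table. The Tough SD was the larger in 19 of the 42 (45.2%), compared with 52.8% of the whole table, with median SDs of 7.48 points in Tough and 7.82 in Tender. Tough 2 was the lowest of the 12 animals in 10 of these blocks and Tender 2 the highest in 9. How often each animal was extreme in such blocks of the whole table was not counted. Tough 2 also had the lowest mean over the whole table, 28.7%, and over the rest of chromosome 14, 30.1%. Tender 2 was the highest in neither. The libraries of Tough 2 and Tender 2 were both among the 5 with higher bisulfite conversion. Neighbouring blocks can share animals' levels, and the block counts are given without a test.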
